A study of Homo sapiens with 8 samples.

Results

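The genes described here are interferon receptors, the kinase and transcription factors that carry the interferon signal, and genes that interferons switch on, followed in HCT116, an established human colorectal carcinoma line. A list of 41 gene symbols was looked up in the array annotation. A gene was taken where a probe set (a group of short probes for 1 transcript) carried exactly 1 gene symbol equal to a listed one, and a gene with several such probe sets is given by the one with the highest mean over the 8 arrays. This found 40 of the 41 listed genes, out of 19775 genes with such a probe set, and 1 listed gene is not analysed here. Of the 40, 34 had a second-highest value at or above the median of all values on the arrays, 4.49 on the log2 scale, and were tested. The other 6 (IFIT2, OAS1, OAS2, MX1, IFI44 and IFI44L) lay between 2.56 and 4.69 on all arrays and were not tested.

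The cultures were treated for 10 h with largazole at 20 nM, SAHA at 2 µM, FK228 at 20 nM or vehicle, with 2 Affymetrix arrays of total RNA in each of the 4 groups. All 3 compounds inhibit histone deacetylases, the enzymes that remove acetyl groups from histone tails. Largazole is a depsipeptide with a thioester side arm, FK228 (romidepsin) a depsipeptide bridged by a disulfide, and SAHA (vorinostat) a hydroxamic acid. All groups share 1 cell line and 1 time, each compound was given at 1 dose, and the labels name no interferon treatment. The labels do not say whether the arrays of a group came from separate cultures, so the spread behind each p-value may be technical alone, and the small number of arrays limits the precision. In RNA of whole cultures, fewer cells with a transcript and less of it per cell cannot be told apart.

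Array medians lay between 4.47 and 4.51. The 6 markers of colorectal epithelium were all measured, at levels of 6.68 to 12.95. With each compound 3 of the 6 were called (2 higher and 1 lower with largazole, 2 and 1 with SAHA, 1 and 2 with FK228). That share was near the 45.2%, 47.4% and 52.8% of all genes tested that were called with these compounds. CLDN4, a tight junction protein, had 7.92 and 7.59 with largazole, 7.53 and 7.66 with SAHA and 6.78 and 6.68 with FK228, against 8.46 and 8.32 with vehicle. CDH1, the epithelial cadherin, had 10.20 and 10.08 with largazole, 10.26 and 10.11 with SAHA and 10.21 and 9.99 with FK228, against 9.41 and 9.40 with vehicle. Of 10 leukocyte markers, 2 reached the filter, and PTPRC, which marks all leukocytes, stayed between 2.40 and 2.90. The summed log2 levels of these 10 ran from 37.8 to 38.6 with largazole, 37.7 to 38.4 with SAHA and 37.7 to 39.2 with FK228, against 37.1 to 37.2 with vehicle, and CSF1R, a myeloid receptor, was called higher with FK228 alone. Of 8 fibroblast and endothelial markers, 4 were tested, and COL1A1, a collagen chain, was called higher with each compound, at 8.56 and 8.24 with largazole, 7.97 and 7.73 with SAHA and 7.80 and 7.66 with FK228, against 7.25 and 7.00 with vehicle. The part of these markers in the results was not tested.

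Interferons signal through paired receptors on the cell surface, whose JAK kinases phosphorylate STAT factors. These bind, with IRF9, to the interferon-stimulated response element (ISRE) of antiviral genes, or as dimers to the gamma-activated site (GAS). Many of the induced proteins sense, tag or destroy viral RNA, and epithelial cells of the gut hold a low level of this programme without infection.

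The ISRE is a repeat of GAAA blocks, and its core (GAAA, any 2 bases and GAAA again, on either strand) was searched in the RefSeq promoters (build GRCh38.p14, 250 bases before to 50 bases after the gene start). Promoters were at hand for 31 of the 40 genes. The 9 genes without one were IRF2, IRF3, IRF7, IFIT2, OAS2, OASL, USP18, PARP10 and IFITM2. IRF7 and OASL, the largest rises among the tested genes, were thus not searched. Of the 31 promoters, 19 (61.3%) held at least 1 match, against 996 of all 27305 promoters (3.65%). The list holds many genes that interferons switch on, so this excess came with the choice of genes and says nothing of the compounds. The shares were 4 of 7 genes (57.1%) called higher with a compound, 8 of 13 genes (61.5%) called lower, 4 of 7 genes (57.1%) called in neither direction and 3 of 4 genes not tested. The letters TTCNNNGAA of a GAS were in 8 of 31 promoters (25.8%), against 2152 of all (7.88%). ISRE matches overlapped each other in 4 genes and overlapped a GAS match in 3 genes. A match is a description of the letters, not a shown binding site.

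The following 4 promoters belong to genes with clear opposite behaviour, taken from those with a promoter at hand. They are shown with each ISRE core in capitals. ISG15 (chr1:1013247-1013546, plus strand) and IFI6 (chr1:27672143-27672442, minus strand) were higher with all 3 compounds, and DTX3L (chr3:122564088-122564387, plus strand) and PARP14 (chr3:122680589-122680888, plus strand) were lower.
ISG15: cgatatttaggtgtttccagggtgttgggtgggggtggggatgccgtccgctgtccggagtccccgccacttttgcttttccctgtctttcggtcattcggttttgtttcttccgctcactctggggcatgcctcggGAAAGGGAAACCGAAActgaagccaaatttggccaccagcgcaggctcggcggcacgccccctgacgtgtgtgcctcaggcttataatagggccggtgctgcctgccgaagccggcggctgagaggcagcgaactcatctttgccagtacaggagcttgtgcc
IFI6: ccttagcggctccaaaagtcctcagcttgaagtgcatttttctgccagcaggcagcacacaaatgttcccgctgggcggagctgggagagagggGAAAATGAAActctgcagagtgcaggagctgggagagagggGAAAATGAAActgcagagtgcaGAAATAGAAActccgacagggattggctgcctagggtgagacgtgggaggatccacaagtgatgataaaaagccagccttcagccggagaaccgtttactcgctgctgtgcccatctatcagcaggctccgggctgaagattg
DTX3L: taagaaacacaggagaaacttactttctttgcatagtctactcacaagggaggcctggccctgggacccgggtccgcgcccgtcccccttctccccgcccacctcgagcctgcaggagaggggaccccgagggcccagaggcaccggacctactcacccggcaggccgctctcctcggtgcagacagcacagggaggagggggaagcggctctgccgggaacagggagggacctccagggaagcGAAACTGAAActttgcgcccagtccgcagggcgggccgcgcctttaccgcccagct
PARP14: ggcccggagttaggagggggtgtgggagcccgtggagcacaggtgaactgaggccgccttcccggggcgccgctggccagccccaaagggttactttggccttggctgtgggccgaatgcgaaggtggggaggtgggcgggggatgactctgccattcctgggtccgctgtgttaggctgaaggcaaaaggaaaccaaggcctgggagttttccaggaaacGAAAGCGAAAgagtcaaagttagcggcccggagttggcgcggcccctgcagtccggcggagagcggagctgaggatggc
In IFI6, 3 cores lie before the start, in ISG15 a pair of cores overlap, and DTX3L and PARP14 hold 1 core each.

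Identical cores were found in the promoters of genes that moved in opposite directions. The core GAAACCGAAA was in the promoters of 7 genes, of which ISG15 and IFI27 were called higher, IFIT1, IFIT5 and PARP12 lower, IFITM3 in neither direction, and MX1 was not tested. IFIT1 was called lower with FK228 alone. The core GAAACTGAAA was in 8 genes, of which 1 was called higher (TRIM21), 3 lower (IFIT5, OAS3 and DTX3L), 3 in neither direction (ISG20, IFITM1 and BST2) and 1 was not tested (IFI44). TRIM21 was called with largazole alone (0.33, adjusted p 0.0383), and that call ended in several refits. The opposite directions at this core therefore rest on a weak call. The other core, GAAACCGAAA, is shown next. It is given in the letters of the gene strand, in capitals with 5 bases on either side, at IFI27 (chr14:94110623-94110642, plus strand), IFIT1 (chr10:89392515-89392534, plus strand), PARP12 (chr7:140062947-140062966, minus strand) and IFITM3 (chr11:320881-320900, minus strand).
IFI27: tgcagTTTCGGTTTCctgga
IFIT1: tccccTTTCGGTTTCcctag
PARP12: gccgcTTTCGGTTTCgtttc
IFITM3: gttgaGAAACCGAAActact
The IFI27, IFIT1 and PARP12 windows hold it on the other strand, so it reads there as its reverse complement.

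**Figure D1:**
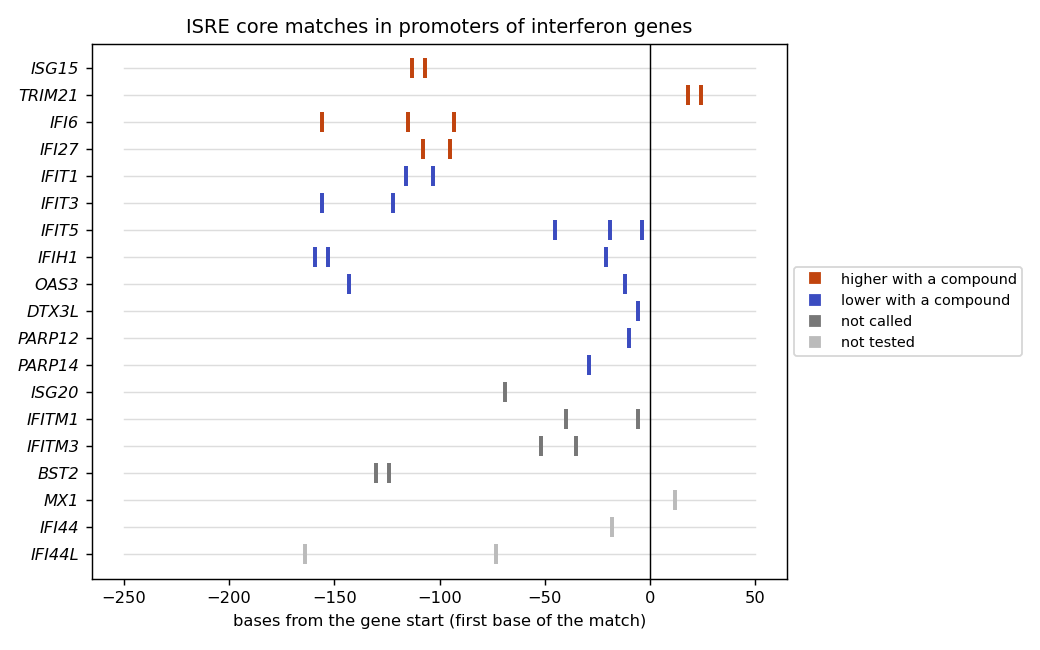
Positions of the ISRE core matches in the 19 promoters that hold one, in bases from the gene start (negative before it), coloured by whether the gene was called higher or lower with a compound, not called or not tested. Matches of genes called lower run from base -159 (IFIH1) to base -4 (IFIT5), and those of genes called higher from base -156 (IFI6) to base 24 (TRIM21).

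Against vehicle, the tested genes split into a larger group that fell and a smaller group that rose, with IRF7 the largest rise and DTX3L the largest fall among them. A gene was called at a Benjamini-Hochberg adjusted p under 0.05 in limma, over all tested probe sets. With largazole, 9 of 34 genes were called higher and 13 lower, 22 in all (64.7%), against 45.2% of all 13373 genes tested (21.9% higher and 23.2% lower). SAHA gave 7 higher and 14 lower, 21 in all (61.8%), against 47.4% of all genes (22.1% higher and 25.2% lower). FK228 gave 8 higher and 15 lower, 23 in all (67.6%), against 52.8% of all genes (25.7% higher and 27.0% lower). The shares called in all, and called lower, lay above those of all genes with each compound. For genes called higher, the share lay above that of all genes with largazole, but below it with SAHA and FK228. No test was made of that, since the genes were chosen with earlier results of these data known.

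Falls of at least 2-fold were called in 8 of the 34 genes with each compound, against 4.74% of all genes with largazole, 5.6% with SAHA and 7.68% with FK228. IRF2 is among these falls with each compound, and it passed the filter through the vehicle arrays alone, which fixed its side. Rises of at least 2-fold were called in 3 genes with largazole, 4 with SAHA and 2 with FK228, against 4.35%, 4.29% and 6.18% of all genes. The median log2 difference of the 34 genes was -0.11 with largazole, -0.23 with SAHA and -0.23 with FK228, beside 0.00177, -0.0189 and 0.013 over all genes. Tested without the filter, so that all 40 genes counted, 20 genes were called with largazole (7 higher and 13 lower), against 26.0% of all genes, 20 with SAHA (7 higher and 13 lower), against 28.1%, and 21 with FK228 (7 higher and 14 lower), against 32.6%. The 3 comparisons share the vehicle arrays. For every call against vehicle the arrays of the groups did not overlap. With 2 against 2 arrays this is a weak property, and it adds little to a call. It also held for genes that were not called, such as TRIM25 with each compound.

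**Figure D2:**
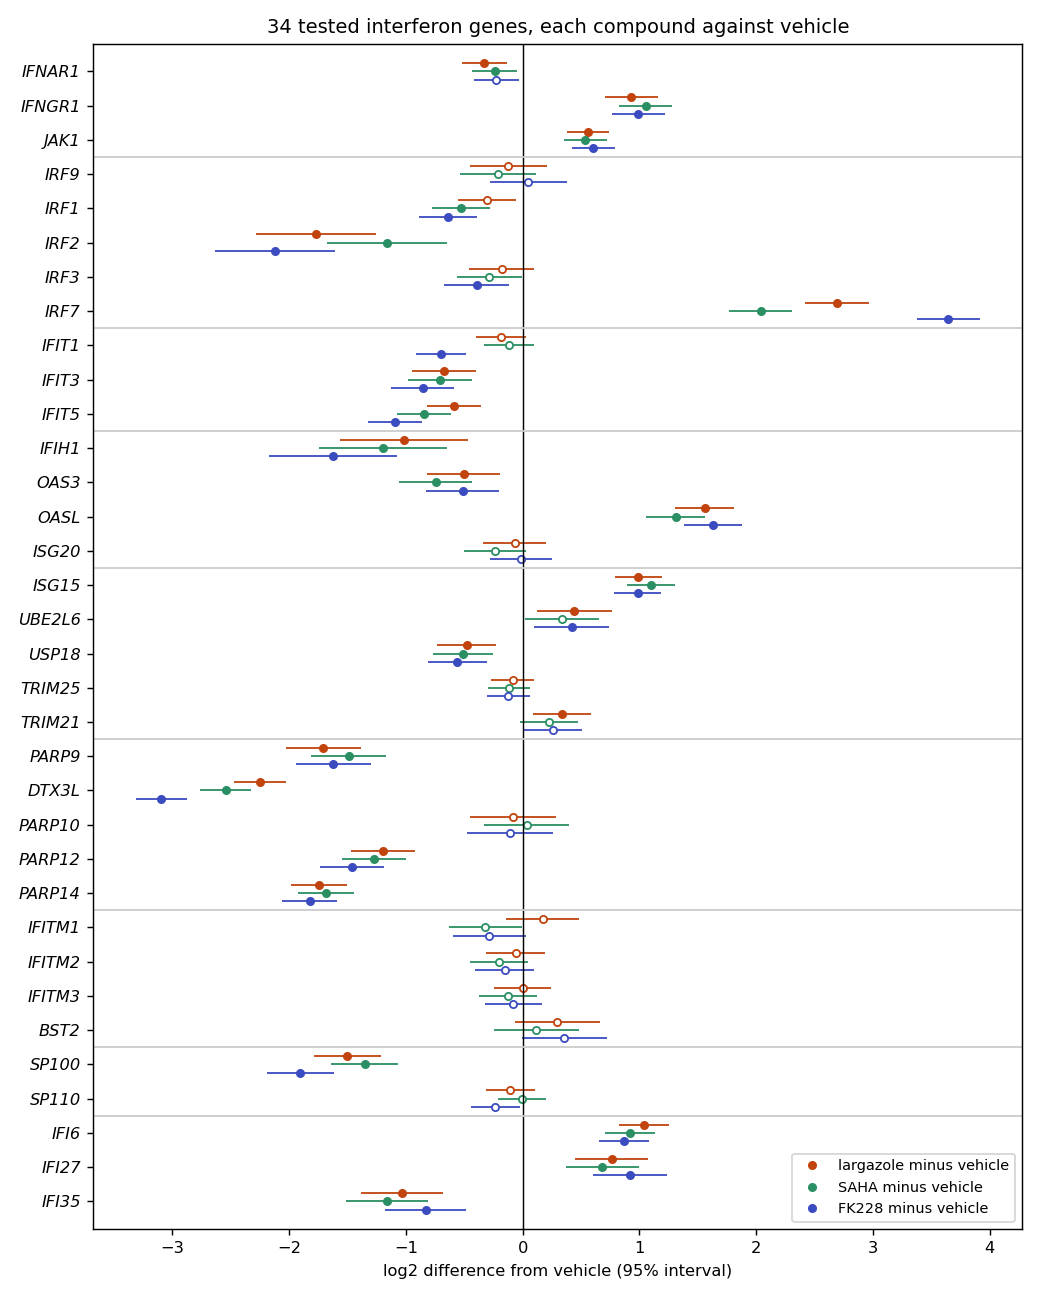
Log2 difference from vehicle of the 34 tested genes for largazole, SAHA and FK228, with 95% confidence intervals, filled points for calls and open points for genes not called, ordered by role. IRF7 lies farthest right (2.69, 2.04 and 3.65) and DTX3L farthest left (-2.25, -2.54 and -3.09), and no IFITM gene was called.

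At the top of the pathway, IFNGR1 and JAK1 rose, and IFNAR1 fell slightly with largazole and SAHA. The partner chains of both receptors, which are not on the list, went the other way. IFNGR2 fell, with differences of -1.29 with largazole, -1.42 with SAHA and -1.59 with FK228 (adjusted p 3.9e-05, 2.4e-05 and 8.29e-06), and IFNAR2 rose by 0.51, 0.41 and 0.51 (adjusted p 0.00376, 0.0091 and 0.00274). IFNGR1, the ligand-binding chain for interferon gamma, stood at log2 levels of 9.80 and 9.68 with largazole, 9.95 and 9.78 with SAHA and 9.85 and 9.76 with FK228, against 8.87 and 8.75 with vehicle. All 6 treated arrays lay above both vehicle arrays. The log2 differences were 0.93 with largazole, 1.05 with SAHA and 0.99 with FK228 (SE 0.0981 each, adjusted p 0.000242, 0.000119 and 0.000107). JAK1, a kinase bound to both kinds of receptor, had 10.56 and 10.49 with largazole, 10.51 and 10.49 with SAHA and 10.56 and 10.58 with FK228, against 10.00 and 9.93 with vehicle. Its treated arrays again all lay above the vehicle arrays, by 0.56, 0.54 and 0.61 (SE 0.0789 each, adjusted p 0.000969, 0.00105 and 0.000442), and the mean of all JAK1 probe sets gave 0.31 for largazole. A second tested JAK1 probe set gave 0.28 with largazole, not called (adjusted p 0.085), and calls of 0.75 with SAHA and 0.95 with FK228. The other tested one gave calls of 0.54, 0.77 and 0.95.

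IFNAR1, a chain of the receptor for interferon alpha and beta, had 7.27 and 7.37 with largazole, 7.39 and 7.43 with SAHA and 7.48 and 7.38 with FK228, against 7.67 and 7.63 with vehicle. The treated arrays lay below the vehicle arrays, by -0.33 with largazole and -0.24 with SAHA (SE 0.0833, adjusted p 0.015 and 0.0489), and the difference of -0.22 with FK228 was not called (adjusted p 0.0566). At 2 other IFNAR1 probe sets FK228 gave calls of -0.80 and -0.36, while the remaining one gave -0.02 with largazole, -0.04 with SAHA and -0.23 with FK228, none of them called (adjusted p 0.914, 0.857 and 0.212). The SAHA call ended when any 1 of the 8 arrays was left out. It also ended without the filter, after equalising ribosomal protein medians and after quantile normalization. Leaving out probe sets whose names end in _x_at or _s_at, or fitting the 4 arrays of those groups alone, ended it too. Over all refits the SAHA difference lay between -0.261 and -0.2048. The largazole call ended without largazole 1, vehicle 1 or vehicle 2.

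Among the interferon regulatory factors, IRF7 rose and IRF2 fell with every compound. IRF7, the factor that drives transcription of the interferon alpha genes, had 8.53 and 8.69 with largazole, 7.83 and 8.07 with SAHA and 9.46 and 9.66 with FK228, against 5.93 and 5.90 with vehicle. No treated array came within the range of the vehicle arrays, and the compounds themselves were apart, FK228 highest and SAHA, given at another dose, lowest. The difference was 2.69 with largazole, a 6.46-fold rise, 2.04 with SAHA, a 4.10-fold rise, and 3.65 with FK228, a 12.5-fold rise (SE 0.117 each, adjusted p 7.33e-06, 1.64e-05 and 1.15e-06). IRF2, which represses IRF1 target genes, had 3.83 and 3.68 with largazole, 4.29 and 4.44 with SAHA and 3.01 and 3.80 with FK228, against 5.58 and 5.48 with vehicle. All its treated arrays lay below the filter value, and it entered the test through the vehicle arrays alone, so it had to differ to be tested. The differences were -1.77 with largazole, -1.16 with SAHA and -2.12 with FK228 (SE 0.221 each, adjusted p 0.00054, 0.00372 and 0.00014).

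IRF1, an early interferon gamma response factor, had 7.01 and 7.13 with largazole, 6.96 and 6.72 with SAHA and 6.74 and 6.71 with FK228, against 7.31 and 7.43 with vehicle. All treated arrays were lower than vehicle, and the call was made for SAHA (-0.53, adjusted p 0.00493) and FK228 (-0.64, adjusted p 0.00159) but not for largazole (-0.30, adjusted p 0.0558), with an SE of 0.107. The second IRF1 probe set gave differences of -0.02, 0.14 and 0.11 and no call, and with the mean of both probe sets the SAHA call ended (-0.19, adjusted p 0.125) and the FK228 difference was -0.27.
IRF3, which is phosphorylated after viral RNA or DNA sensing, had 6.79 and 6.73 with largazole, 6.64 and 6.66 with SAHA and 6.38 and 6.70 with FK228, against 6.85 and 7.02 with vehicle. Only the FK228 difference was called (-0.39 ± 0.12, adjusted p 0.0271). That call ended without FK228 1 or vehicle 2 (as small as -0.23) and after equalising ribosomal protein medians. It also ended without the filter (adjusted p 0.0529) and in the fit of the 4 arrays of those groups (adjusted p 0.0656). IRF9, the DNA-binding partner of the STAT factors at ISREs, stayed between 6.33 and 6.90 on all arrays and was called with no compound.

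**Figure D3:**
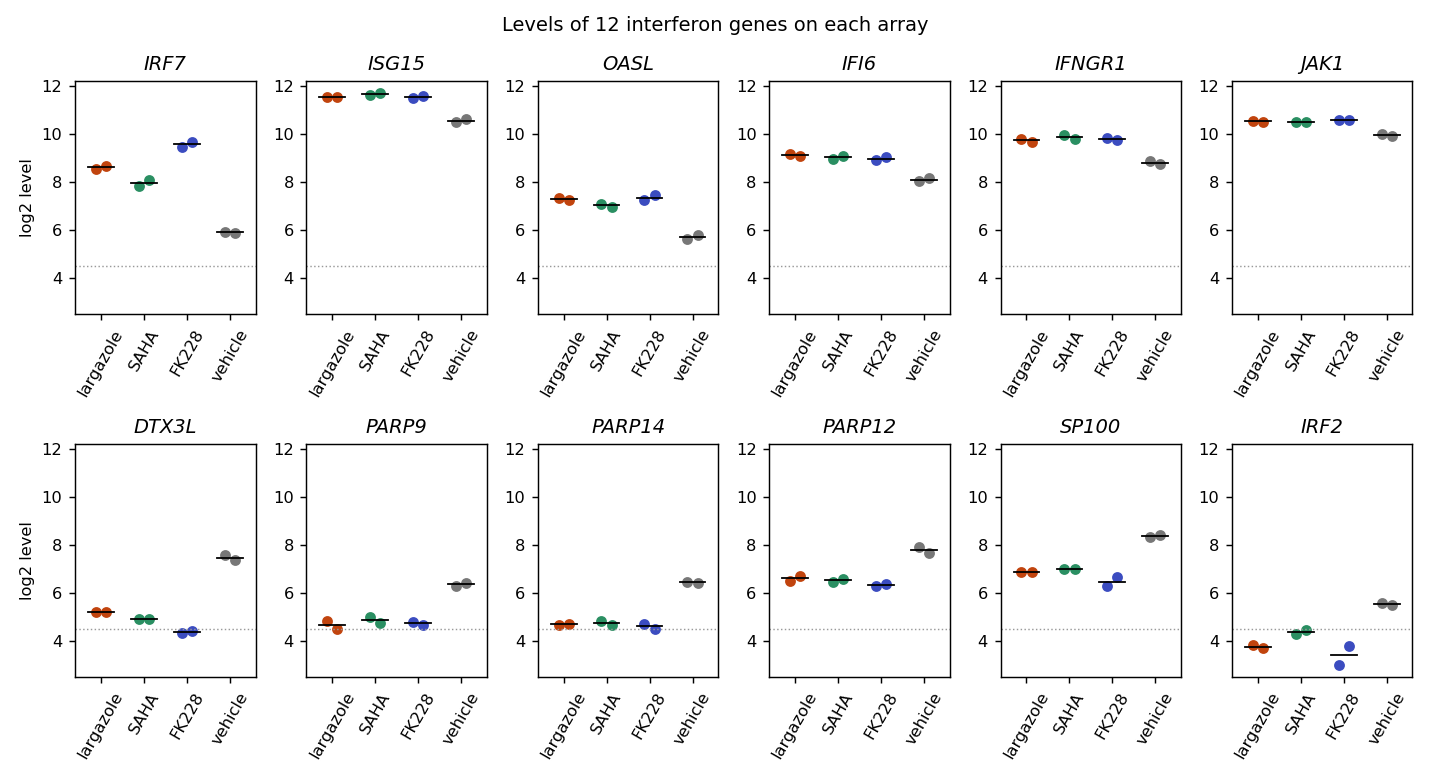
Log2 levels of 12 genes on each of the 8 arrays (points) with the group mean (bar) for largazole, SAHA, FK228 and vehicle, the dotted line marking the filter value of 4.49. IRF7, ISG15, OASL, IFI6, IFNGR1 and JAK1 are higher on every treated array than on both vehicle arrays, and DTX3L, PARP9, PARP14, PARP12, SP100 and IRF2 lower. IRF2 reached the filter through the vehicle arrays alone, which fixed its side.

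The tested IFIT genes, whose proteins bind viral RNA lacking host cap marks, fell or were not called. IFIT5 had 8.10 and 7.89 with largazole, 7.76 and 7.72 with SAHA and 7.52 and 7.46 with FK228, against 8.65 and 8.51 with vehicle. Treated arrays were lower in each case, by -0.59, -0.84 and -1.09 (SE 0.1 each, adjusted p 0.00248, 0.000378 and 7.28e-05). IFIT3, which binds and stabilises IFIT1, had 5.04 and 4.82 with largazole, 4.84 and 4.94 with SAHA and 4.71 and 4.79 with FK228, against 5.48 and 5.72 with vehicle. All of its treated arrays lay below the vehicle arrays, by -0.67, -0.71 and -0.86 (SE 0.117 each, adjusted p 0.00272, 0.0019 and 0.000574). Its other tested probe set, which passed through the vehicle arrays alone, gave -2.57, -2.58 and -2.82.

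IFIT1, the best known of the family, had 6.66 and 6.80 with largazole, 6.76 and 6.84 with SAHA and 6.16 and 6.29 with FK228, against 6.93 and 6.91 with vehicle. Only FK228 was called, at -0.70 ± 0.0923 (adjusted p 0.000486). With largazole (-0.19, adjusted p 0.146) and SAHA (-0.12, adjusted p 0.347) it was not called. IFIT2, the fourth gene of the cluster, was not tested, but its other probe set passed the filter with 3.86 and 3.48 with largazole, 3.69 and 3.69 with SAHA and 3.39 and 3.65 with FK228, against 5.02 and 5.18 with vehicle. That probe set passed only through the vehicle arrays, and differed by -1.43, -1.41 and -1.58. The 4 IFIT genes lie close together on chromosome 10, where IFIT1 and IFIT5 are direct neighbours, as are IFIT2 and IFIT3.

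The RNA sensor IFIH1 fell and the OAS genes split, with OASL up and OAS3 down. IFIH1 (MDA5), the cytoplasmic sensor of long double-stranded RNA, had 5.68 and 5.11 with largazole, 5.27 and 5.17 with SAHA and 4.51 and 5.06 with FK228, against 6.59 and 6.23 with vehicle. No treated array reached a vehicle array, and the differences were -1.02, -1.19 and -1.62 (SE 0.235 each, adjusted p 0.0102, 0.00446 and 0.000782). The largazole call ended without largazole 2 or vehicle 1 (adjusted p up to 0.0675).
OASL, an OAS-like protein without synthetase activity, had 7.32 and 7.23 with largazole, 7.10 and 6.95 with SAHA and 7.25 and 7.44 with FK228, against 5.63 and 5.80 with vehicle. The treated arrays were all higher, by 1.56, 1.31 and 1.63 (SE 0.108 each, adjusted p 3.86e-05, 6.99e-05 and 1.6e-05). Its other tested probe set gave smaller rises of 0.91, 0.97 and 1.10. OAS3, a synthetase of the oligoadenylates that activate RNase L, had 7.38 and 7.38 with largazole, 7.05 and 7.22 with SAHA and 7.17 and 7.57 with FK228, against 7.85 and 7.91 with vehicle. Here the treated arrays were all lower, by -0.50, -0.74 and -0.51 (SE 0.135 each, adjusted p 0.0193, 0.00298 and 0.0145). Leaving out any 1 of the largazole or vehicle arrays ended the largazole call (adjusted p up to 0.0898), and leaving out FK228 1 or vehicle 2 ended the FK228 call (as small as -0.31, adjusted p up to 0.0691). OAS1 and OAS2, direct neighbours of OAS3 on chromosome 12, stayed between 3.30 and 4.12 and were not tested. ISG20, an RNA exonuclease, stayed between 5.50 and 5.96 and was called with no compound.

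In the ISG15 cycle, the modifier ISG15 rose while its removing protease USP18 fell. ISG15, a ubiquitin-like protein that is attached to target proteins, had 11.54 and 11.54 with largazole, 11.61 and 11.69 with SAHA and 11.48 and 11.58 with FK228, against 10.49 and 10.61 with vehicle. The 6 treated arrays stood close together above the vehicle arrays, by 0.99, 1.10 and 0.98 (SE 0.087 each, adjusted p 0.000106, 5.84e-05 and 6.09e-05). USP18, the protease that removes ISG15 and dampens IFNAR signalling, had 6.00 and 5.96 with largazole, 5.87 and 6.03 with SAHA and 5.79 and 6.02 with FK228, against 6.40 and 6.53 with vehicle. It lay lower on all treated arrays, by -0.48, -0.51 and -0.56 (SE 0.109 each, adjusted p 0.00952, 0.00659 and 0.00361), and the largazole call ended without largazole 2 or vehicle 2 (adjusted p up to 0.0624).

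UBE2L6, the conjugating enzyme for ISG15, had 8.12 and 8.04 with largazole, 7.85 and 8.10 with SAHA and 7.88 and 8.24 with FK228, against 7.59 and 7.69 with vehicle. It was called for largazole (0.44, adjusted p 0.0344) and FK228 (0.42, adjusted p 0.0355), not for SAHA (0.34, adjusted p 0.083), with an SE of 0.137. Both calls ended without the filter or without any 1 of the largazole or vehicle arrays, and the FK228 call also without FK228 2 (adjusted p up to 0.143 for largazole and 0.193 for FK228, whose difference was 0.24 at the smallest). TRIM21, a ubiquitin ligase that binds antibody-coated virus, had 6.82 and 6.98 with largazole, 6.74 and 6.84 with SAHA and 6.84 and 6.82 with FK228, against 6.68 and 6.45 with vehicle. Only largazole was called (0.33 ± 0.107, adjusted p 0.0383), and that call ended without any 1 of the largazole or FK228 arrays or vehicle 2 (as small as 0.22, adjusted p up to 0.212) and without the filter. TRIM25, the ligase that activates the RNA sensor RIG-I, stayed between 9.63 and 9.81 and was called with no compound.

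Of the PARP and DTX3L genes, 4 of 5 fell with every compound, and DTX3L fell most of all tested genes on the list. DTX3L, a ubiquitin ligase that works with PARP9, had 5.21 and 5.20 with largazole, 4.89 and 4.93 with SAHA and 4.33 and 4.39 with FK228, against 7.57 and 7.34 with vehicle. The groups were fully apart, with FK228 lowest, and the fall was 4.75-fold with largazole, 5.83-fold with SAHA and 8.53-fold with FK228 (-2.25, -2.54 and -3.09, SE 0.0953 each, adjusted p 6.66e-06, 4.24e-06 and 9.95e-07). PARP9, its binding partner, had 4.81 and 4.47 with largazole, 4.99 and 4.74 with SAHA and 4.78 and 4.68 with FK228, against 6.29 and 6.41 with vehicle. Treated and vehicle arrays were more than 1 log2 unit apart, with differences of -1.71, -1.49 and -1.62 (SE 0.137 each, adjusted p 6.99e-05, 0.000113 and 4.97e-05). PARP9 and DTX3L are direct neighbours on opposite strands of chromosome 3, PARP14 lies 1 gene beyond DTX3L, and the promoter windows of PARP9 and DTX3L share 0 bases.

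PARP14, a mono-ADP-ribosyltransferase, had 4.65 and 4.72 with largazole, 4.83 and 4.66 with SAHA and 4.71 and 4.50 with FK228, against 6.44 and 6.42 with vehicle. The treated arrays lay near the filter value and well below vehicle, by -1.74, -1.68 and -1.82 (SE 0.103 each, adjusted p 2.06e-05, 2.04e-05 and 8.25e-06), and the mean of all PARP14 probe sets gave smaller differences of -0.78, -0.82 and -0.92. PARP12, which relocates to stress granules, had 6.49 and 6.71 with largazole, 6.47 and 6.57 with SAHA and 6.29 and 6.38 with FK228, against 7.92 and 7.67 with vehicle. All treated arrays lay below the vehicle arrays, by -1.20, -1.28 and -1.47 (SE 0.118 each, adjusted p 0.000179, 0.000115 and 3.93e-05). PARP10, which modifies single amino acids with ADP-ribose, stayed between 5.06 and 5.53, and its differences of -0.08, 0.03 and -0.11 were not called.

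Of the nuclear body genes, SP100 fell and SP110 was called with no compound. SP100, a core protein of PML nuclear bodies, had 6.85 and 6.86 with largazole, 7.00 and 7.00 with SAHA and 6.26 and 6.64 with FK228, against 8.30 and 8.41 with vehicle. Every treated array lay more than 1 log2 unit below vehicle, by -1.50, -1.35 and -1.90 (SE 0.124 each, adjusted p 7.89e-05, 0.000111 and 1.5e-05). A second SP100 probe set gave -1.79, -1.72 and -2.36. Another gave -1.19, -1.11 and -1.48, but it reached the filter through the vehicle arrays alone and so had to be lower to be tested. The mean over all SP100 probe sets was -0.85, -0.80 and -1.13. SP110, a related gene on chromosome 2, stayed between 7.31 and 7.65.

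The IFI genes went both ways. IFI6, an inhibitor of apoptosis and of flavivirus replication, had 9.18 and 9.10 with largazole, 8.97 and 9.08 with SAHA and 8.90 and 9.04 with FK228, against 8.06 and 8.15 with vehicle. Its treated arrays were all higher, by 1.04, 0.92 and 0.87 (SE 0.092 each, adjusted p 0.00011, 0.000163 and 0.000155). IFI27, a mitochondrial and nuclear membrane protein, had 6.23 and 6.12 with largazole, 6.04 and 6.16 with SAHA and 6.42 and 6.25 with FK228, against 5.23 and 5.60 with vehicle. The treated arrays were all higher here too, by 0.76, 0.68 and 0.92 (SE 0.136 each, adjusted p 0.00303, 0.00458 and 0.000856). IFI35, a leucine zipper partner of NMI, had 6.14 and 6.16 with largazole, 5.96 and 6.08 with SAHA and 6.41 and 6.30 with FK228, against 6.94 and 7.43 with vehicle. It was lower on every treated array, by -1.04, -1.16 and -0.83 (SE 0.151 each, adjusted p 0.00113, 0.000564 and 0.00247). MX1, the dynamin-like antiviral GTPase, and IFI44 and IFI44L stayed between 2.56 and 3.54 and were not tested.

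The membrane proteins IFITM1, IFITM2 and IFITM3, which block fusion of incoming virus, and BST2, which tethers budding virus, were called with no compound. IFITM2 stayed between 11.11 and 11.49 and IFITM3 between 11.68 and 11.97, both measured by probe sets that can hybridise to more than 1 gene. IFITM1 stayed between 5.25 and 5.97 and BST2 between 4.88 and 5.47. The differences of IFITM1 were 0.17 with largazole, -0.32 with SAHA and -0.28 with FK228 (adjusted p 0.363, 0.09 and 0.119). The difference of BST2 with FK228, 0.36, had an adjusted p of 0.0976. Over all genes not called, the 95% confidence intervals of the log2 difference ran from -0.55 to 0.664 with largazole (12 genes), from -0.635 to 0.656 with SAHA (13 genes) and from -0.597 to 0.724 with FK228 (11 genes). A missing call does not show that a gene was unchanged.

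**Figure D4:**
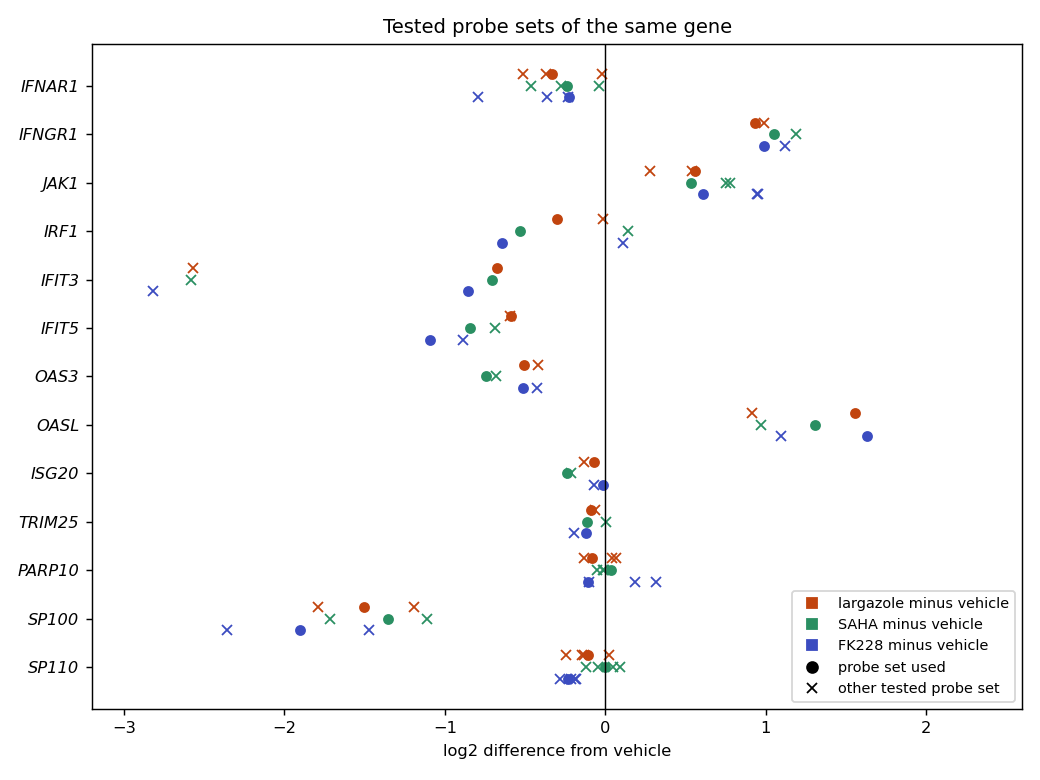
Log2 differences from vehicle at each tested probe set of genes with several, filled circles for the probe set used and crosses for the others, in 3 colours for largazole, SAHA and FK228. The IFIT3 and OASL probe sets differ in size, and the IRF1 probe sets lie on both sides of 0. The other IFIT3 and OAS3 probe sets and 1 of SP100 reached the filter through the vehicle arrays alone, which fixed their side.

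Largazole and FK228 had the same dose and time, so 1 pair of compounds was compared directly. Of the 34 genes, 3 were called higher with largazole than with FK228 and 1 lower, 4 in all (11.8%), against 9.06% of all genes (4.88% higher and 4.19% lower), so the share was near the background. Without the filter, 1 of 40 was higher and 1 lower (5.0%), against 2.84% of all genes. IRF7 had 8.53 and 8.69 with largazole, against 9.46 and 9.66 with FK228, and no array overlapped. The difference was -0.95 ± 0.117 (95% confidence interval -1.227 to -0.682, adjusted p 0.00634). DTX3L had 5.21 and 5.20 with largazole, against 4.33 and 4.39 with FK228, which lie below the filter value. The difference was 0.85 ± 0.0953 (95% confidence interval 0.625 to 1.068, adjusted p 0.00478). IFIT1 had 6.66 and 6.80 with largazole, against 6.16 and 6.29 with FK228 (0.51 ± 0.0923, adjusted p 0.0201), and IFIT5 had 8.10 and 7.89, against 7.52 and 7.46 (0.51 ± 0.1, adjusted p 0.0257). In all 4 genes the mean lay farther from vehicle with FK228. Without largazole 1, the IRF7 call (adjusted p 0.0613) and the DTX3L call (adjusted p 0.0524) ended. Leaving out any 1 of the largazole or FK228 arrays ended the IFIT1 call and the IFIT5 call. Both calls also ended without the filter and in the fit of the 4 arrays of these groups. Over all refits the differences were as small as 0.43 for IFIT1 and 0.40 for IFIT5. The other tested IFIT5 probe set gave 0.30 and was not called (adjusted p 0.0911). SAHA was given at another dose and was not compared with them.

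For the other 30 genes the interval of the largazole minus FK228 difference lay within -0.555 and 1.15, so the data do not show that the compounds acted alike on them. IFIH1 had the widest upper bound, with a difference of 0.61 that was not called (adjusted p 0.158). ISG15 differed by 0.0047 and IFNGR1 by -0.06, and neither was called. Other probe sets of JAK1 and SP100 gave calls where the chosen ones did not, with differences of -0.67 (adjusted p 0.0161) and 0.56 (adjusted p 0.0173).

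**Figure D5:**
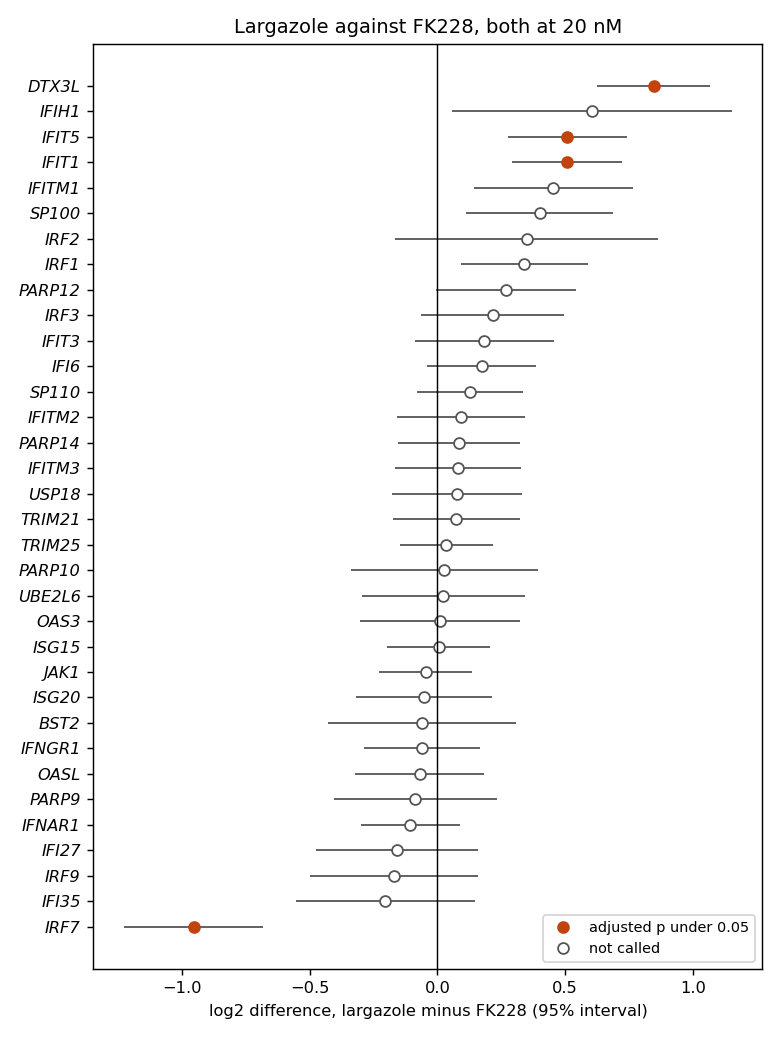
Log2 difference of largazole minus FK228, both at 20 nM, for the 34 tested genes with 95% confidence intervals, filled points for the 4 called genes and open points for the rest. DTX3L, IFIT1 and IFIT5 lie to the right of 0 and IRF7 to the left, and the other 30 genes were not called.

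The wider interferon pathway was read from a list of 92 further genes, of which 86 had a probe set and 54 were tested. Of these 54, 15 were called higher and 20 lower with largazole, 11 higher and 20 lower with SAHA, and 12 higher and 23 lower with FK228. The shares called, 64.8% with largazole, 57.4% with SAHA and 64.8% with FK228, stand beside 45.2%, 47.4% and 52.8% of all genes tested. The interferon genes themselves, IFNB1 included, were present as 9 probe sets between 2.19 and 3.96, and none was tested. Of the 10 tested genes of nucleic acid sensing, 1 was called higher and 8 lower with largazole, 1 and 8 with SAHA, and 1 and 9 with FK228. Of all genes, 23.2%, 25.2% and 27.0% were called lower with these compounds. The sensing gene that rose was DHX58 (LGP2), a helicase that modulates MDA5, with differences of 0.79 with largazole, 0.53 with SAHA and 1.10 with FK228.

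The genes that fell in that group included EIF2AK2 (PKR), the kinase that halts translation upon double-stranded RNA, with -1.36, -1.44 and -1.36, TRAF3, an adaptor upstream of IRF3, with -0.98, -1.02 and -1.13, and STING1, the adaptor of cytoplasmic DNA sensing, with -0.91, -1.21 and -0.90. Among the remaining genes, the largest rises were of LAMP3, a lysosomal membrane protein, by 2.10, 1.98 and 2.06, and of STAT3, the factor of interleukin 6 signalling, by 1.62, 1.61 and 1.76. NMI, the partner of IFI35, had the largest falls, with -2.37, -2.44 and -2.67. IFNGR2, described with the receptors, was also among the largest falls. Further genes among the extremes were SOCS1, a feedback inhibitor of JAK kinases, at 0.99 with largazole, SAMHD1, a nucleotide hydrolase, at 0.98 with SAHA, and SAMD9, an antiviral factor, at -1.61 with FK228. The largazole arrays of SOCS1 lay apart, at 5.30 and 6.215, against 4.62 and 4.91 with vehicle (SE 0.299, adjusted p 0.031). Mean levels of SAMHD1 were 9.64 with largazole, 9.77 with SAHA and 9.785 with FK228, against 8.79 with vehicle. Those of SAMD9 were 5.50, 5.60 and 4.70, against 6.31. Between largazole and FK228, 5 of the 54 genes were called higher and 1 lower (11.1%), near the 9.06% of all genes. The extremes were IRF2BP2, a corepressor that binds IRF2, at 1.26, SAMD9 at 0.80, IFNLR1, the interferon lambda receptor, at 0.65 and NUB1, which lowers ubiquitin-like NEDD8, at -0.42.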

How the data were processed

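Gene expression was measured on 8 Affymetrix arrays, 2 per group. The deposited values are on the log2 scale, 1 per probe set. The tools listed in the submitters' processing notes are affy, RMA and limma, without versions, and the steps by which the authors made the log2 values are not given in the sources used here. Of 54613 probe sets, 41091 had 1 gene symbol, 1801 had several and 11721 none, and 41037 matched a RefSeq gene by ID.

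A single linear model over the 8 arrays was fitted in limma 3.58.1 (R 4.3.3), with a mean for each group and moderated variances (4 residual and 3.69 prior degrees of freedom), on 28985 probe sets whose second-highest value reached 4.49. Benjamini-Hochberg adjustment covered all of them in each of the 4 comparisons. The half-width of the 95% interval of a log2 difference had a median of 0.257. The lowest two-sided p of an exact permutation of 2 against 2 arrays is 0.333, so none was run. The fit was tested on simulated data. Tables and figures used Python 3.11.15, pandas 2.3.3 and matplotlib 3.10.9.

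The genes and lists were chosen with earlier results of these data known. All genes found are named, with every array for those called in any comparison, and of the further pathway genes up to 3 highest and 3 lowest called per comparison. IFNAR2, TRAF3, STING1 and the markers given by array were added after their values were seen. Results were recomputed with no filter, with a filter at 6.87, with a trended and robust prior, with a replicate block, after equalising the medians of 52 ribosomal protein genes, after quantile normalization, without probe sets whose names end in _x_at or _s_at, with the mean over a gene's probe sets, on the 4 arrays of a comparison alone, and without each array.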

Additional observations from a re-analysis of the deposited data

How the results depend on the processing

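No called gene changed direction under any alternative tried. Counts of called genes are of the 34 tested unless another number is given. With the stricter filter (20 genes tested), 8 were lower with largazole, 8 lower with SAHA and 5 higher with largazole than with FK228. Without _x_at and _s_at probe sets (23 tested), SAHA gave 4 higher and 9 lower, FK228 gave 5 higher, and largazole against FK228 gave 0 lower. IRF7, ISG15, PARP12 and IFI35 are among the genes with an _s_at probe set alone, so this refit could not assess them. IRF7 was the gene called lower in the main fit of largazole against FK228. Largazole against FK228 gave 1 higher without the filter and 1 higher in the fit of its own 4 arrays. Over all genes, that comparison called 1212, and 562 without the filter, 1917 with the stricter filter, 2023 with an intensity trend and robust prior, and 623 with its own 4 arrays. Fewer genes or arrays enter the fits with a stricter filter, fewer probe sets or 4 arrays, and otherwise the cause was not tested.

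When 1 array was dropped, the array that stayed in its group was given the spread of the rest. Largazole then gave 7 to 9 higher and 10 to 14 lower (4435 to 5997 of all genes), SAHA 7 to 8 and 13 to 14 (4957 to 6301), FK228 7 to 8 and 13 to 15 (5761 to 7026), and largazole against FK228 0 to 3 and 0 to 1 (99 to 990). Of the results for single genes, 1030 kept their side of the threshold, 47 lost a call and 11 gained one.

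The replicate numbers served as a replicate block: it gave 9 higher and 13 lower with largazole, 7 and 14 with SAHA, 9 and 16 with FK228, and 3 and 1 for largazole against FK228, with 1862 of all genes called in the last. The genes it added with FK228 were IFNAR1 (adjusted p 0.0483, against 0.0566 without the block) and BST2 (0.0437, against 0.0976). Deviations of arrays with the same number correlated at 0.128 to 0.268 over 28985 probe sets, above 0 in every pair of groups, but with only 2 numbers and no label that ties them to a culture or day, no pairing was assumed. The small number of arrays limits what could be called, and genes under the filter value were not tested.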
